A study of Mus musculus with 4 samples.

Results

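The genes described here are the Wnt ligands, their receptors and co-receptors, and the secreted, membrane and intracellular modulators of the Wnt pathway. They were taken from the deposited table of gene counts by a rule that reads gene symbols alone, and 58 of the 27293 listed genes matched. The counts come from 4 RNA-seq libraries of telencephalic tissue from C57BL/6 mouse embryos at embryonic day 13 (E13). The genotype label is WT in 2 libraries (WT 1 and WT 2) and STINGf/f;Nestin-Cre in the other 2 (cKO 1 and cKO 2). STING is an adaptor of the innate immune response to cytosolic DNA. In cKO embryos its floxed gene is deleted by Cre made under the Nestin promoter, which is active in neural progenitors, so cells that do not descend from Nestin-expressing cells keep it. No allele or agent is named for WT, but the title of WT 2 holds the abbreviation nes where that of WT 1 holds wt, and no source used here explains it. The comparison asks how loss of STING in the neural lineage goes together with the RNA levels of these genes.

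Wnt proteins are secreted ligands that carry a lipid, which the enzyme Porcn attaches and without which Wls, their carrier to the cell surface, does not pass them on. At the receiving cell they bind a Frizzled receptor together with Lrp5 or Lrp6. The complex of Axin and Apc then no longer marks β-catenin (Ctnnb1) for destruction, and β-catenin acts with Lef and Tcf factors on target genes. R-spondins strengthen the signal by taking away Rnf43 and Znrf3, the ubiquitin ligases that clear Frizzled receptors, while Sfrp, Wif1, Dkk, Notum and Apcdd1 proteins weaken it. In the embryonic telencephalon the cortical hem, at the medial edge of the cortex beside the choroid plexus, is the best known source of Wnt ligands, and Wnt signals keep cortical progenitors dividing and pattern the cortex from medial to lateral.

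Counts on genes summed to between 17209654 and 18533391 per library. Levels are given as CPM, counts scaled to library size by the TMM method, and a count of 0 allows a level of up to 0.162 to 0.174 CPM (3 counts). The STING gene, listed as Tmem173, had 20 counts in WT 1 and 19 in WT 2, against 18 in cKO 1 and 22 in cKO 2. These gene-level counts do not separate the floxed part from the rest, so the genotypes rest on the labels. Markers of the labelled tissue were high in all 4 libraries, at a summed 1540 to 1700 CPM for 9 cortical progenitor genes and 5120 to 6170 CPM for 8 cortical neuron genes. WT 1 stood apart in markers of other tissues at the midline and surface of the telencephalon. There, 11 choroid plexus markers summed to 63 CPM in WT 1 and 7.49 to 10.7 CPM in the other libraries, 7 cortical hem markers to 41.1 against 8.25 to 12.6 CPM, and 14 meninges and mesenchyme markers to 370 against 79.4 to 128 CPM. The choroid plexus markers Ttr and Clic6 are not in this sum, since they have no counts listed for all 4 libraries. In the separate counts of WT 1 and cKO 1 alone, Ttr had 5071 in WT 1 and 23 in cKO 1, and Clic6 had 526 and 2. WT 2 was the library with 0 counts summed over the Y-linked Uty, Kdm5d, Ddx3y and Eif2s3y (1848 to 3002 in the others), and Porcn is the member on chromosome X. Results that rest on WT 1 are therefore given with and without it.

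Levels between genes were compared per length, as CPM per kilobase of exon averaged over the 4 libraries. The most abundant member was Ctnnb1, at 154 CPM per kilobase, followed by the secreted inhibitor Sfrp1 at 75.1, the ligand Wnt7b at 46.4 and the receptor Fzd2 at 37.8. Among the ligands Wnt7a was second to Wnt7b, at 18 CPM per kilobase, and every other ligand was at or below 2.56. A group of 13 members (8 ligands, Rspo4, Sfrp5, Dkk1, Notum and Dkk4) had at most 13 counts in any library. The 8 ligands were Wnt1, Wnt2, Wnt6, Wnt9b, Wnt10a, Wnt10b, Wnt11 and Wnt16. Wnt6 had 8 and 12 counts in WT against 2 and 3 in cKO, and Wnt10a had 9 in WT 1 and 2 to 4 in the other libraries. These 13 did not pass the filter on low counts, which left 45 members among 16145 genes tested. No member was at 0 in all 4 libraries.

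**Figure D1:**
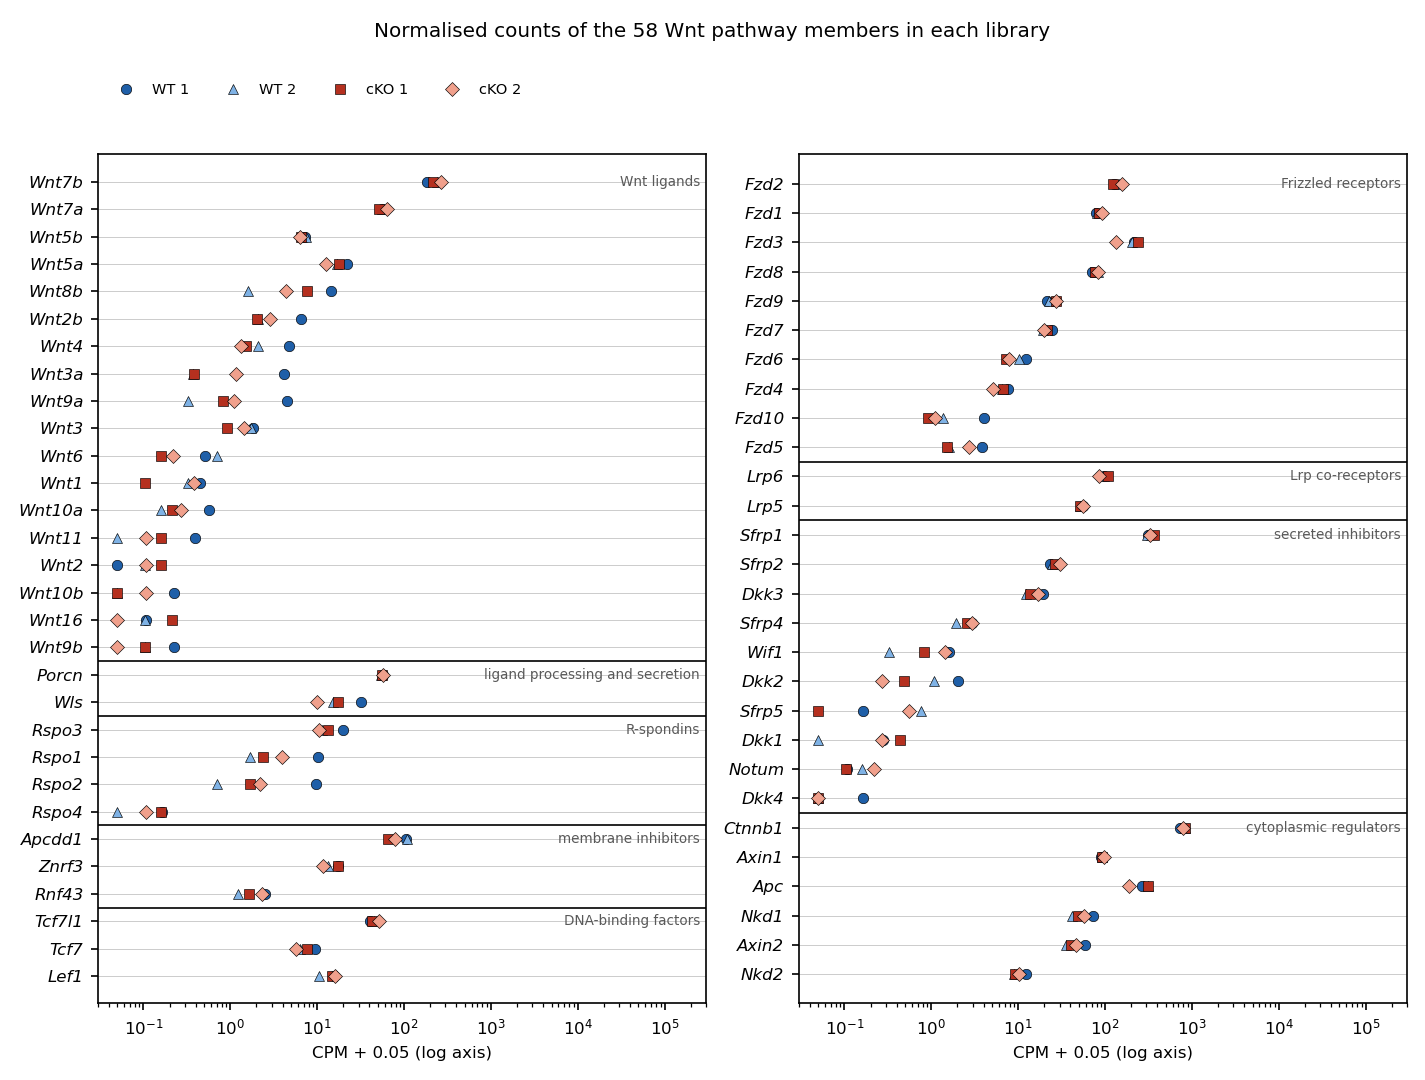
Normalised counts (CPM, with 0.05 added so that counts of 0 can be drawn, on a log axis) of all 58 members in WT 1, WT 2, cKO 1 and cKO 2, grouped by role. Most members above 10 CPM have the 4 points close together, while Wnt3a, Wnt9a, Rspo1 and Rspo2 have WT 1 far to the right of the other libraries.

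Between cKO and WT, 3 of the 45 tested members met the study's thresholds, which are a 2-fold change or more and an unadjusted p that does not exceed 0.05, and all 3 were lower in cKO. They were the secreted inhibitor Dkk2, the receptor Fzd10 and the ligand Wnt4. Of these, Dkk2 passed the filter on low counts through its WT libraries alone. The share of 6.67% compares with 0.669% of all genes tested that were lower by these thresholds. No member was higher by them, against 0.142% of all genes. At any fold, 5 members (11.1%) had an unadjusted p of at most 0.05, against 1.23% of all genes, with Fzd6 and Apcdd1 as the others. After Benjamini-Hochberg adjustment in edgeR's quasi-likelihood test no member passed 0.05, as for all genes (0%, with 199 genes at an unadjusted p under 0.05 and a smallest adjusted p of 0.9999). The median log2 fold change of the 45 members was -0.14, beside -0.01 over all genes tested, and it was 0.06 without WT 1. With all libraries 28 members (62.2%) were below 0, against 52.1% of all genes tested.

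The groups parted, with both cKO libraries below both WT libraries, in 7 of the 45 members (15.6%), against 10.8% of all genes. These were Wnt3, Wnt4, Wnt5b, Fzd6, Fzd10, Dkk2 and Apcdd1. Both cKO libraries lay above both WT libraries in 5 members (Fzd1, Fzd9, Sfrp1, Sfrp2 and Axin1), or 11.1% against 11% of all genes. With 2 libraries a group an exact permutation test cannot give a two-sided p below 0.333, so the standard errors, 95% intervals and calls below come from edgeR's quasi-likelihood fit on all genes. The adjusted p of each of the 45 members was 0.9999. In tissue samples of this kind, fewer cells of a type and less RNA per cell cannot be told apart.

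Dkk2, a secreted ligand of Lrp co-receptors that modulates the pathway, had the largest difference of the members tested. The gene (ENSMUSG00000028031) lies at chr3:132085292-132180304 on the plus strand. It had 34 counts in WT 1 and 19 in WT 2, against 8 in cKO 1 and 4 in cKO 2. Both cKO counts were too low for the filter, so Dkk2 was tested through its WT libraries alone. Its difference may in part reflect that selection. The cKO libraries were both lower, at 0.331 ± 0.151 CPM (SD, n = 2) against 1.49 ± 0.653 CPM in WT (SD, n = 2). On the log2 scale the fold change was -2.15 (standard error 0.60, 95% interval -3.54 to -0.75). Without WT 1 it was -1.62 and without cKO 2 -1.74, so the sign held but the thresholds were no longer met. These fits take the lone library of a group to vary as the other group does. The 250 bases before the annotated start of Dkk2 (chr3:132085042-132085291, plus strand, GRCm38) are shown because this member alone was lower by the thresholds at an unadjusted p of at most 0.01, with CpG sites in capitals.
Dkk2: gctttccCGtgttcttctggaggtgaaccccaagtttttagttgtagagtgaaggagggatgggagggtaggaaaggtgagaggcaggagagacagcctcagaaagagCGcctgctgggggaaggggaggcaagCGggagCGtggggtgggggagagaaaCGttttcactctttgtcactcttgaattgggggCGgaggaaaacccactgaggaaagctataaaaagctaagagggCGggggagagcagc
This stretch has a GC content of 55.6% and 7 CpG sites, beside medians of 52.4% and 6 over all 32851 mouse promoters of the same length and 66.6% and 20.5 over 46 promoters of 37 members.

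Wnt4 (ENSMUSG00000036856), a ligand best known from the kidney and gonad, lies at chr4:137277489-137299726. It had 81 counts in WT 1 and 37 in WT 2, against 27 in cKO 1 and 23 in cKO 2. Both cKO libraries were lower, but WT 1 stood well above WT 2. Its level was 1.38 ± 0.133 CPM in cKO and 3.33 ± 1.87 CPM in WT (SD, n = 2 each), a log2 fold change of -1.26 (standard error 0.48, 95% interval -2.38 to -0.15). Without WT 1 the value was -0.54 and the thresholds were not met.

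Fzd10 (ENSMUSG00000081683), a Frizzled receptor at chr5:128600844-128604093, had 70 counts in WT 1 and 24 in WT 2, against 16 in cKO 1 and 19 in cKO 2. Here too WT 1 was the library far from the rest. The level was 0.969 ± 0.134 CPM in cKO and 2.66 ± 1.93 CPM in WT (SD, n = 2 each), a log2 fold change of -1.45 (standard error 0.58, 95% interval -2.79 to -0.11). Without WT 1 it was -0.43, again outside the thresholds. The calls of Wnt4 and Fzd10 were also lost without cKO 1, at log2 fold changes of -1.36 and -1.31, and without cKO 2, at -1.16 and -1.58.

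Apcdd1, a membrane glycoprotein that binds Wnt and Lrp proteins and inhibits the signal, had the smallest unadjusted p of the 45 members. Its counts were 1823 and 2005 in WT 1 and WT 2, against 1212 and 1408 in cKO 1 and cKO 2, so both WT libraries were high and both cKO libraries low. The level was 72.5 ± 8.88 CPM in cKO and 107 ± 2.86 CPM in WT (SD, n = 2 each), a log2 fold change of -0.56 (standard error 0.15, 95% interval -0.92 to -0.20, adjusted p = 0.9999). The value was -0.59 without WT 1 and -0.52 without WT 2. It is under the study's fold threshold. Fzd6, a receptor best known from planar cell polarity, had 213 counts in WT 1 and 188 in WT 2, against 132 in cKO 1 and 141 in cKO 2, again with the groups apart. Its log2 fold change was -0.57 (standard error 0.25), and -0.44 without WT 1. Of the cell type markers, those of endothelium and choroid plexus were also lower in both cKO libraries when summed. All 9 endothelium markers had a log2 fold change below 0, with a median of -0.46, none met the thresholds, and 5 had groups that parted. Their summed level was 229 and 179 CPM in WT against 155 and 156 CPM in cKO. The choroid plexus markers summed to 63 CPM in WT 1 and 10.7 CPM in WT 2, against 7.49 and 9.01 CPM in cKO. By the thresholds, all 4 tested choroid plexus markers and 2 of 10 tested meninges and mesenchyme markers were lower in cKO. Over all genes tested the share was 0.669%. The part of these tissues in the values of Apcdd1 and Fzd6 was not tested.

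**Figure D2:**
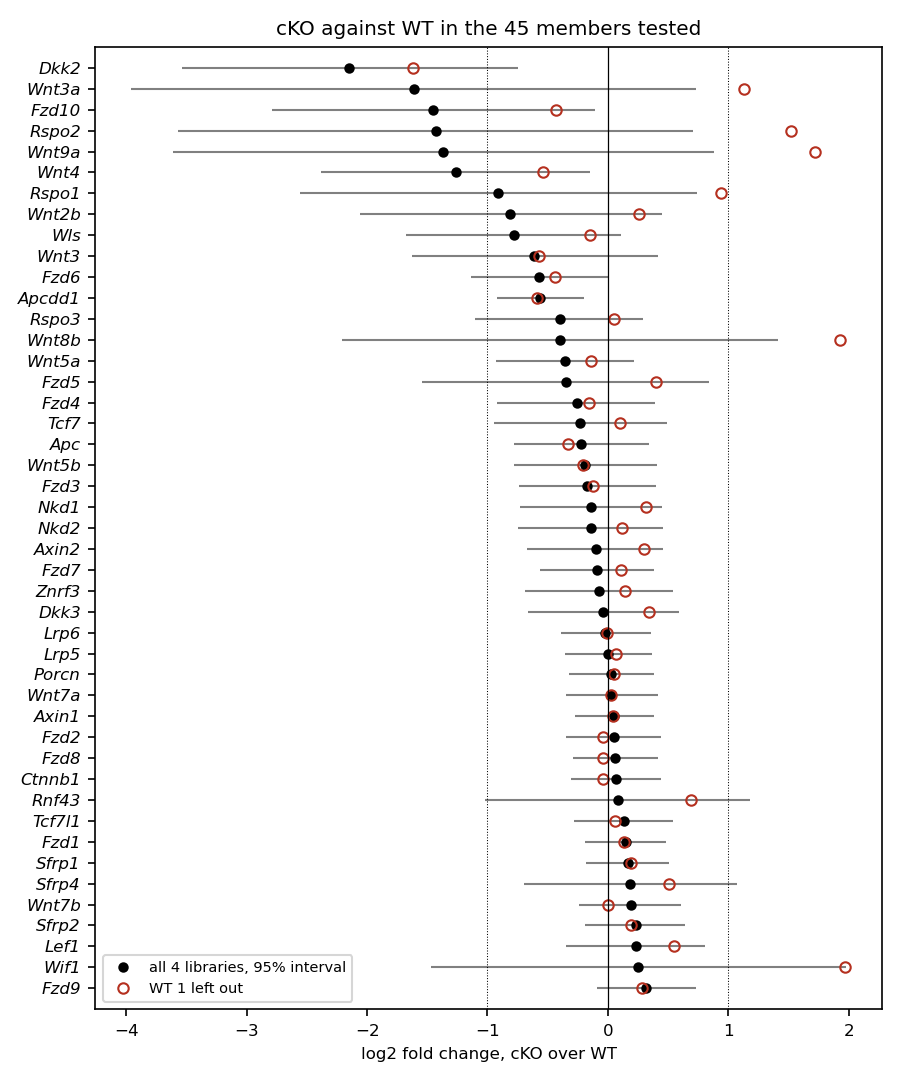
Log2 fold change of cKO over WT (x axis) for the 45 tested members, with its 95% interval (line) from all 4 libraries (filled points) and the value with WT 1 left out (open circles), with dotted lines at a 2-fold change. Apcdd1 and Dkk2 stay below 0 without WT 1, whereas Wnt3a, Wnt9a, Wnt8b, Rspo1 and Rspo2 move from below 0 to above 0.

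Among the Wnt ligands, 10 of 18 were tested, and 1 (Wnt4) met the thresholds. The abundant ligands Wnt7b and Wnt7a, which are made within the cortex itself, differed little between the groups. Wnt7b had 3206 and 4433 counts in WT 1 and WT 2, and 3985 and 4745 in cKO 1 and cKO 2, with a log2 fold change of 0.19 (95% interval -0.24 to 0.61). Wnt7a had 979, 1036, 947 and 1136 counts in the same order, giving a log2 fold change of 0.03 (-0.35 to 0.42). In both ligands the groups overlapped, and both intervals lie within a 2-fold change. Wnt5a, a ligand known mostly for signalling without β-catenin, had 388 and 308 counts in the WT libraries and 326 and 226 in the cKO libraries (log2 fold change -0.36, 95% interval -0.93 to 0.22). The groups of Wnt5a overlapped, while those of its relative Wnt5b parted narrowly, at 124 and 135 counts in WT against 118 and 112 in cKO (log2 fold change -0.19, -0.78 to 0.41). Wnt3 had 31 counts in each WT library, 16 in cKO 1 and 25 in cKO 2 (log2 fold change -0.61, -1.63 to 0.42).

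The ligands known from the cortical hem and medial cortex, and Wnt9a beside them, followed another pattern, in which WT 1 was the highest of the 4 libraries and WT 2 was at or near the lowest. Wnt3a, the hem ligand needed for growth of the hippocampus, had 72 counts in WT 1 and 6 in WT 2, against 6 in cKO 1 and 20 in cKO 2. WT 1 was 12.7 times WT 2 (exact Clopper-Pearson 95% interval 5.56 to 35.8). WT 2 held no more Wnt3a than the cKO libraries did. Wnt9a had 78, 5, 14 and 19 counts in the same order of libraries, and WT 1 was 16.5 times WT 2 (6.78 to 52.3). Wnt8b, a ligand of the medial pallium, had 249, 29, 140 and 78 counts, with both cKO libraries between the WT libraries and a ratio of 9.09 (6.18 to 13.9). Wnt2b, another hem ligand, had 112, 37, 36 and 51 counts, a ratio of 3.21 (2.19 to 4.78). These intervals cover counting error and compare the libraries, not the conditions. The log2 fold changes of cKO over WT were -1.61 for Wnt3a, -1.37 for Wnt9a, -0.40 for Wnt8b and -0.81 for Wnt2b, all with an interval that includes 0. Without WT 1 they became 1.13, 1.72, 1.93 and 0.26, so the direction turned in all 4.

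Wnt3a and Wnt9a lie next to each other on chromosome 11 and point away from each other, with 16175 bases between them (Wnt3a at chr11:59248033-59290752 on the minus strand, Wnt9a at chr11:59306928-59333552 on the plus strand). The 250 bases before their annotated starts (chr11:59290752-59291001, minus strand, and chr11:59306680-59306929, plus strand) and before that of Wnt8b (chr19:44493222-44493471, plus strand) are shown because these 3 had the largest ratios between the WT libraries among the tested ligands, with CpG sites in capitals.
Wnt3a: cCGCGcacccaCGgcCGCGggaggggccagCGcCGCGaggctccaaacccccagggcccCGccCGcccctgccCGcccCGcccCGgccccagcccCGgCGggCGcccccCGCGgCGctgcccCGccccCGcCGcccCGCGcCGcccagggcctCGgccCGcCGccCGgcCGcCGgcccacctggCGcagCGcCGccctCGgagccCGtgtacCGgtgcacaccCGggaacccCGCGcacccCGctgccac
Wnt9a: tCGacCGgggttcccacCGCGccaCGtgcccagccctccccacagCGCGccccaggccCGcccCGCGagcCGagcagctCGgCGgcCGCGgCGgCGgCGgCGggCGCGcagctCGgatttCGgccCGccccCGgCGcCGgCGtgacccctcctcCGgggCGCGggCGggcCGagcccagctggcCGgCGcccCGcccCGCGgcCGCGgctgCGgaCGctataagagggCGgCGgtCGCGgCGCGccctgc
Wnt8b: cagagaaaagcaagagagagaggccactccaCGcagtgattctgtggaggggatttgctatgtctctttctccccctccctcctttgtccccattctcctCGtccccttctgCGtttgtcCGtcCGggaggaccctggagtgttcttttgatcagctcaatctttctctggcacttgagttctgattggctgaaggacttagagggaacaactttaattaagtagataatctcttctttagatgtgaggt
The neighbours have CpG-rich starts, with a GC content of 87.6% and 41 CpG sites for Wnt3a and 84.4% and 48 for Wnt9a. Wnt8b, also highest in WT 1, has 48.4% and 5. The letters CTTTG followed by 2 letters that are each A or T, a short form of the TCF/LEF motif, were searched on both strands. They were absent from these 4 windows and present in 5 of the 46 member promoters (10.9%), beside 14.8% of all mouse promoters. The member promoters that hold them are those of Wnt5b, Wnt11, Fzd7, Dkk1 and Lef1.

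Of the genes for ligand processing and secretion, Porcn had 984 and 1007 counts in WT 1 and WT 2 and 1016 and 1035 in cKO 1 and cKO 2. Its log2 fold change was 0.03 (95% interval -0.32 to 0.38). Wls had 558 counts in WT 1 and 279 in WT 2, against 321 in cKO 1 and 176 in cKO 2. WT 1 was again the highest library, and cKO 1 lay above WT 2. The log2 fold change of Wls was -0.78 (standard error 0.39), and -0.15 without WT 1.

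The R-spondins showed the same high WT 1. Rspo2 had 166 counts in WT 1 and 12 in WT 2, against 30 in cKO 1 and 38 in cKO 2, and Rspo1 had 177, 30, 43 and 70. In both genes the cKO libraries lay between the WT libraries. The ratio of WT 1 to WT 2 was 14.6 for Rspo2 (8.17 to 28.9) and 6.25 for Rspo1 (4.23 to 9.53). The log2 fold changes were -1.43 and -0.91 with all 4 libraries and 1.52 and 0.94 without WT 1. Rspo3, the most abundant of the family at 4.44 CPM per kilobase, had 346, 209, 242 and 185 counts in the same order, giving a log2 fold change of -0.40 (-1.10 to 0.29) that was 0.05 without WT 1. Rspo4 had at most 2 counts in any library.

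All 10 Frizzled receptors were tested, and Fzd10 alone met the thresholds. Fzd2, the most abundant per length, had 2216 and 2664 counts in WT against 2257 and 2820 in cKO (log2 fold change 0.05, 95% interval -0.35 to 0.44). Fzd1 had 1388 and 1503 counts in WT against 1563 and 1668 in cKO (0.15, -0.19 to 0.48), and Fzd8 had 1237, 1525, 1417 and 1489 (0.06, -0.29 to 0.42). These 3 receptors, all able to act through β-catenin, thus had intervals within a 2-fold change. Fzd9 had 371 and 417 counts in WT against 500 and 492 in cKO. Its groups parted upwards, with a log2 fold change of 0.32 (-0.09 to 0.73). Fzd3, a receptor for axon guidance and planar polarity, had 3756 and 3726 counts in WT, but 4339 in cKO 1 and a lower 2419 in cKO 2. Its cKO libraries thus lay on either side of WT, and the log2 fold change was -0.17 (-0.74 to 0.40). Fzd5 had 65, 29, 27 and 48 counts, with a log2 fold change of -0.35 that was 0.40 without WT 1. Fzd4 and Fzd7 had log2 fold changes of -0.26 and -0.09 with overlapping groups.

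The co-receptors were nearly level. Lrp6 had 1709 and 1786 counts in WT against 1970 and 1529 in cKO, with a log2 fold change of -0.02 (95% interval -0.39 to 0.36). Lrp5 had 973, 946, 946 and 998 counts, a log2 fold change of 0.00 (-0.36 to 0.37).

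Among the secreted inhibitors, 6 of 10 were tested. Sfrp1, which binds Wnt ligands and is made by cortical progenitors, had 5475 and 5587 counts in WT against 6686 and 5883 in cKO. Both cKO libraries were above both WT libraries, at a log2 fold change of 0.17 (95% interval -0.18 to 0.51). Sfrp2 also parted upwards, at 409 and 455 counts in WT against 484 and 535 in cKO (0.23, -0.19 to 0.64). Neither passed the test. Dkk3, a divergent relative of the other Dkk genes, had 338, 224, 250 and 306 counts (-0.04, -0.66 to 0.59), and Sfrp4 had 50, 35, 46 and 52 (0.18, -0.70 to 1.07). Wif1, which binds Wnt ligands, had 27 counts in WT 1 and 5 in WT 2, against 14 in cKO 1 and 25 in cKO 2. The WT libraries enclosed the cKO libraries, and the log2 fold change of 0.25 became 1.97 without WT 1. Sfrp5 had 2 and 13 counts in WT against 0 and 9 in cKO, so libraries of one label differed as much as the groups.

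Of the other membrane inhibitors, Znrf3 had 305, 243, 320 and 209 counts (log2 fold change -0.07, 95% interval -0.69 to 0.54) and Rnf43 had 43, 22, 29 and 41 (0.08, -1.02 to 1.18). The groups overlapped in both of these ligases.

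The core of the intracellular pathway differed little. Ctnnb1 had 12558 counts in WT 1 and 15457 in WT 2, against 15402 in cKO 1 and 14162 in cKO 2, with a log2 fold change of 0.07 (95% interval -0.31 to 0.44). Axin1, the scaffold of the destruction complex, had 1570, 1681, 1677 and 1726 counts (0.05, -0.27 to 0.38). Apc had 4661 and 5824 counts in WT and 5763 in cKO 1, with a lower 3349 in cKO 2 (-0.22, -0.78 to 0.34). Axin2 and Nkd1, feedback inhibitors that are widely used as readouts of the pathway, both had WT 1 highest and WT 2 lowest. Axin2 had 1023, 657, 750 and 838 counts, a log2 fold change of -0.10 (-0.67 to 0.46) that was 0.30 without WT 1. Nkd1 had 1279, 777, 883 and 1015 counts, a log2 fold change of -0.14 (-0.73 to 0.45) that was 0.32 without WT 1. Nkd2 had 215, 162, 166 and 180 counts (-0.14, -0.75 to 0.46). Among the DNA-binding factors, Lef1 had 273 and 193 counts in WT against 267 and 288 in cKO (0.23, -0.35 to 0.81), while Tcf7l1 and Tcf7 had log2 fold changes of 0.13 and -0.23 with overlapping groups. Over all 45 members tested, the interval lay within a 2-fold change either way in 28.

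A list of 66 other genes of the pathway gave no call. Of its 60 tested genes, 0 were lower and 0 higher by the study's thresholds, against 0.669% and 0.142% of all genes tested. These shares are low enough that a list of 60 can give 0 calls without differing from all genes. The median log2 fold change was 0.03. The 15 tested genes of 20 other secreted or membrane modulators had a median of -0.08 and ran from -0.86 to 1.32. Each of the 20 listed genes for signal transduction inside the cell, such as Dvl, Gsk3, casein kinase and Tle genes, was tested, and their log2 fold changes ran from -0.24 to 0.15. The 15 planar polarity genes had a median of 0.04 and ran from -1.51 to 0.19. The 10 tested genes of 11 commonly cited targets, members left out, ran from -0.39 to 0.25 with a median of -0.09.

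The differences between libraries of one label were then counted. WT 1 was at least 2-fold above WT 2 in 12 of the 45 members (26.7%), against 4.31% of all genes. The counting interval of the ratio was above 1 in all 12, but they were picked by that same ratio, so this is no separate support. The 12 were Wnt2b, Wnt3a, Wnt4, Wnt8b, Wnt9a, Wls, Fzd5, Fzd10, Rspo1, Rspo2, Wif1 and Rnf43. No tested member was at least 2-fold higher in WT 2, against 1.55% of all genes. In cKO, Wnt3a alone of the tested members was at least 2-fold higher in cKO 2 than in cKO 1 (2.22%, against 2.56% of all genes). No tested member was 2-fold higher in cKO 1 (5.83% of all genes). WT 1 was the highest of the 4 libraries in 26 members (57.8%), against 25.1% of all genes tested.

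**Figure D3:**
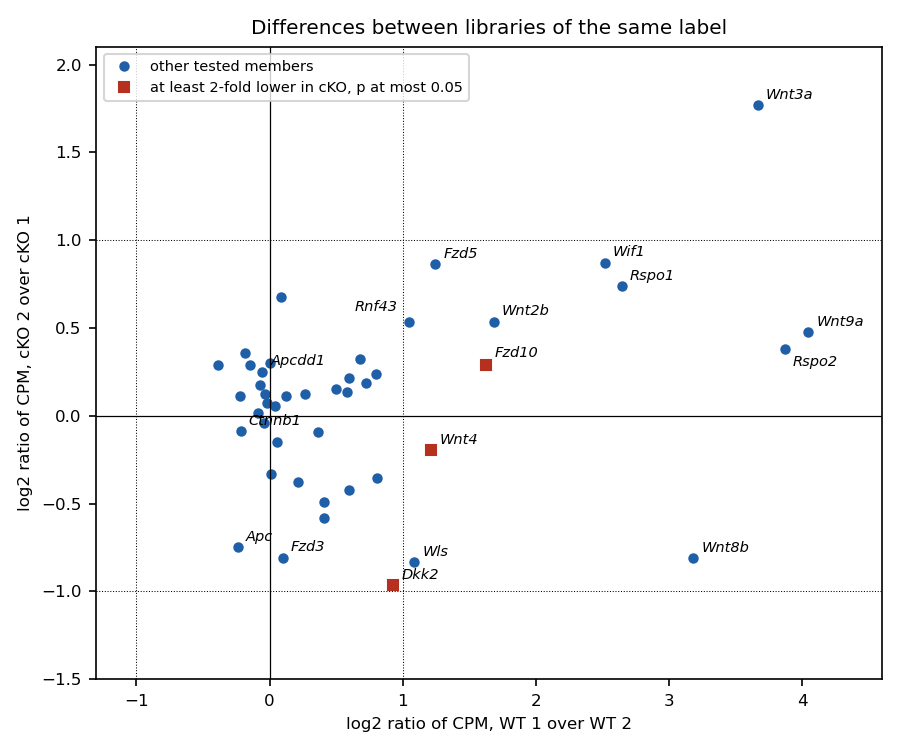
For the 45 tested members, the log2 ratio of CPM in WT 1 over WT 2 (x axis) and in cKO 2 over cKO 1 (y axis), with squares for the 3 members that met the study's thresholds and dotted lines at a 2-fold ratio. The 12 members right of the dotted line at 1 include Wnt4 and Fzd10, and no member lies left of -1.

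Leaving out one WT library at a time gave opposite pictures. Without WT 1, 0 of 47 tested members were lower by the thresholds (0.28% of all genes) and 2 were higher, Rspo2 and Wnt8b (4.26% of members, 0.34% of all genes). Without WT 2, 10 of 45 were lower (22.2%, against 2.44% of all genes) and 0 were higher (0.372% of all genes). The 10 were Wnt2b, Wnt3a, Wnt4, Wnt8b, Wnt9a, Wls, Fzd10, Rspo1, Rspo2 and Dkk2. Of these, Wnt3a, Wnt9a, Rspo1 and Rspo2 had an adjusted p under 0.05 in edgeR's test (4 of 45 members, 8.89%, against 0.685% of all genes), which no member had with all 4 libraries. Without cKO 1, 2 of 47 members (4.26%) were lower, Dkk2 and Wls, against 2.85% of all genes, and without cKO 2 none was (0.589% of all genes). With no filter on low counts, 7 of 58 members (12.1%) were lower, against 1.22% of all genes. At an unadjusted p of at most 0.01, 1 member was (2.22%, against 0.0743% of all genes). With DESeq2 and with the replicate number as a block 3 members were lower (6.67%), against 0.359% and 1.09% of all genes. In 18 of the 45 members the sign of the log2 fold change turned when WT 1 was left out, as it did in 7 of the 12 that were 2-fold higher in WT 1 than in WT 2. The share over all genes was not counted. Some of these values were near 0 to begin with, such as Fzd2 (0.05 to -0.04) and Ctnnb1 (0.07 to -0.04). In the 12, leaving out the higher WT library raises the log2 fold change by construction.

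The same library was high in markers of the tissues around the hem. The 4 R-spondins summed to 39.7 CPM in WT 1 and 13.6 CPM in WT 2, against 17.3 and 16.5 CPM in the cKO libraries. Each of the 5 tested hem markers was at least 2-fold higher in WT 1 than in WT 2, as were the 4 tested choroid plexus markers and 8 of 10 tested meninges and mesenchyme markers. The defining hem gene Lmx1a had 83 counts in WT 1 and 6 in WT 2, against 20 in cKO 1 and 19 in cKO 2, and Msx1 had 142, 14, 17 and 45. Hem markers too low to test were Gdf7, which was not 2-fold higher in WT 1 than in WT 2 (10, 8, 2 and 9 counts), and Msx2 (21, 1, 1 and 2). Of the choroid plexus markers, Cldn2 was at 0 in WT 2, cKO 1 and cKO 2, Folr1 was at 0 in WT 2 and Kcnj13 at 0 in cKO 2. Blood markers summed to 891 CPM in WT 1 and 337 to 526 CPM in the other libraries. WT 1 was also highest in endothelium markers, at 229 against 155 to 179 CPM, and in microglia markers, at 51.4 against 34.5 to 42.3 CPM. Markers of Cajal-Retzius cells, early neurons of which some arise at the hem, did not share the pattern, at 337 CPM in WT 1 and 345 to 400 CPM in the others. The part of these tissues in the levels of Wnt4, Fzd10, Wls, the hem ligands and the R-spondins was not tested. The ventral telencephalic markers were lowest in cKO 1, at 693 CPM against 1030 to 1070 CPM in the other 3 libraries.

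**Figure D4:**
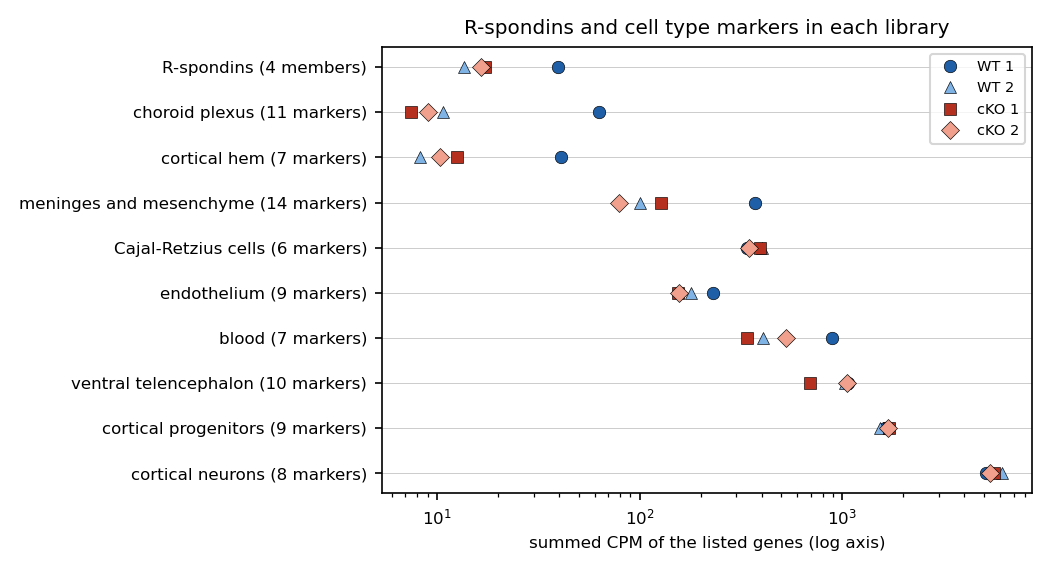
Summed CPM (log axis) of the 4 R-spondins and of 9 lists of cell type markers in each library. WT 1 lies to the right of the other 3 libraries for R-spondins (39.7 against 13.6 to 17.3 CPM), choroid plexus, cortical hem and meninges. It also does for endothelium and blood, and narrowly for ventral telencephalon (1070 against 693 to 1050 CPM). It does not for Cajal-Retzius cells, cortical progenitors or cortical neurons.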

How the data were processed

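The authors sequenced RNA of E13 telencephalic tissue and deposited raw counts of reads per gene, in 1 table of all 4 libraries and 1 of WT 1 and cKO 1. The counts of the 21342 genes in both were identical, and the first was used. Its 11 rows without a gene (0.0403%) were left out. The submitters' processing notes name Bowtie2 2.2.3, TopHat2 2.0.12, HTSeq 0.6.0 and the build mm9, without roles. Gene positions lay within 1 base of GENCODE M21 (GRCm38) at the start or end for 97.2% of 27232 genes found there and for 53 of the 58 members, so GRCm38 was used. The strand setting and the treatment of reads shared between genes are not given in the sources used here. Deposited columns of normalised values, fold changes and p-values, made by the authors for their own comparisons, were not used.

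Groups and replicate numbers came from the labels, which do not say whether libraries of one label came from separate litters or embryos. WT 1 and WT 2 had Y-linked sums of 2735 and 0 counts, so they are not repeats of one sample. The p-values measure the spread between these samples, which in cKO may be technical. Total counts of 17209654 to 18533391 limit the precision of members with few counts, and intervals of ratios cover counting error alone. Counts were fitted over all genes with edgeR 4.0.16 in R 4.3.3 (TMM, filterByExpr, quasi-likelihood test, no covariate) and p-values were adjusted over all genes by Benjamini-Hochberg. The procedure was tested on simulated data. Alternatives were RLE and upper-quartile scaling, no filter beyond 1 count, at least 10 counts in every library, DESeq2 1.42.0, a replicate block, a prior count of 0.125 in place of 2 on the log scale, stricter thresholds and each library left out in turn. Exon lengths are of the union of GENCODE M21 exons. Promoter sequences are RefSeq's (GRCm38.p6), cut to the 250 bases before the start. Of the members, 37 matched an entry.

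The members and gene lists were chosen with earlier results of these data known. The rule for members named with full values took those past the thresholds, the 10 largest log2 fold changes, the 2 most abundant per role, the 5 largest ratios between libraries of each label, and ligands and modulators known from the hem. Other members were named, after their values were seen, to complete the roles and the counts.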

Additional observations from a re-analysis of the deposited data

How the results depend on the processing

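With the other scalings (RLE and upper quartile), DESeq2 and the replicate block the count of members past the study's thresholds was 3, and with at least 10 counts in every library, which left out Dkk2, it was 2. It was 7 with no filter, 1 at an unadjusted p of at most 0.01 and 0 at an adjusted p under 0.05. Leaving out 1 library at a time gave 0 to 10 calls: 2 without WT 1 (both higher), 10 without WT 2, 2 without cKO 1 (Dkk2 and Wls) and 0 without cKO 2. The median log2 fold change, -0.14 with all libraries, ran from -0.34 without WT 2 to 0.06 without WT 1. With the replicate block the median was -0.09, and the log2 fold change of Wnt8b turned to 0.12. Signs under the block were read for the 34 members of the naming rule, and no other of these turned. Same-numbered libraries correlated at 0.108 in their deviations from the group means, and no label says that a number marks a litter or batch, so the block rests on the number alone. Among these 34, the log2 fold changes that turned in sign when 1 library was left out ran from -2.72 to 1.13 for Wnt3a, -2.28 to 1.72 for Wnt9a, -1.24 to 1.93 for Wnt8b, -1.40 to 0.26 for Wnt2b, -0.11 to 0.18 for Wnt7a, -1.69 to 0.94 for Rspo1, -2.33 to 1.52 for Rspo2 and -0.74 to 0.05 for Rspo3. Among receptors and co-receptors they ran from -0.13 to 0.22 for Fzd2, -0.83 to 0.40 for Fzd5, -0.05 to 0.07 for Lrp5 and -0.19 to 0.15 for Lrp6. Among inhibitors and regulators they ran from -0.51 to 1.97 for Wif1, -0.32 to 0.34 for Dkk3, -0.39 to 0.20 for Znrf3, -0.04 to 0.19 for Ctnnb1, -0.47 to 0.32 for Nkd1 and -0.41 to 0.30 for Axin2, and among DNA-binding factors from -0.02 to 0.55 for Lef1, -0.01 to 0.27 for Tcf7l1 and -0.48 to 0.10 for Tcf7. Of the members outside the 34, Fzd7, Fzd8 and Nkd2 turned without WT 1, to 0.11, -0.04 and 0.12. The cause was not tested. Members with few counts, such as Dkk2 and Wif1, are limited by depth, and 13 members were too low to test.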
